A study of Mus musculus with 8 samples.

Results

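Of the 57417 consensus regions of accessible chromatin in PB3 mouse breast cancer cells, 3070 (5.35%) overlapped a peak of the paclitaxel-resistant line and a peak of the vinorelbine-resistant line by at least 1 bp, and no peak of the parental or the eribulin-resistant line. ATAC-seq, in which the transposase Tn5 cuts and tags open chromatin, had been run on 2 libraries of each of 4 lines. The groups were untreated PB3-Parental cells and 3 resistant derivatives: PB3-ERI-R (eribulin, spelled Erubilin in the labels), PB3-PAC-R (paclitaxel) and PB3-VIN-R (vinorelbine). All are labelled Er-/Pr-/Her2-, and the resistant lines are described as clones obtained with 300, 500 and 800 nM of their drug. No label says that the replicates of a line were separate cultures, so p-values measure the spread between these libraries, which may be technical, and a difference between lines cannot be told apart from a difference between clones.

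A peak list records where the signal passed a caller's threshold, so a region can hold signal in a line and still have no peak there. The 3070 regions were chosen by the 4 peak lists, that is, by whether the signal of each line passed that threshold. The differences of PB3-PAC-R and PB3-VIN-R from PB3-Parental are therefore described without support from a test. PB3-VIN-R against PB3-PAC-R, and PB3-ERI-R against PB3-Parental, were tested, because both lines of the first comparison had a peak at every one of these regions and neither line of the second had one. The rule still bears on the second comparison, since the parental libraries resemble those of the lines chosen for a peak. Paclitaxel stabilises microtubules, while vinorelbine and eribulin block their growth, and each of them halts dividing cells in mitosis. Open regions away from gene starts are often enhancers, which bind transcription factors and raise the activity of genes on the same chromosome. Open regions at gene starts are promoters.

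Promoter windows of RefSeq (GRCm38.p6, from 250 bases before to 50 bases after a start) overlapped these regions by at least 150 bases in 80 cases, for 74 genes and 73 regions. The 4 windows below are printed because results turn on them: Clec2h, a C-type lectin gene whose region was the only one at a gene end called above the parental line, Col5a1, a fibrillar collagen gene whose region was lower in PB3-ERI-R, Zmynd11, a chromatin reader gene at the region with most CPM near a gene end, and Runx2, a transcription factor gene of the mesenchymal programme. Runx2 was chosen after its values were seen. The Clec2h window (chr6:128662135-128662434, plus strand) has 38.0% GC and 0 CpG, and the 2 runs in capitals match the AP-1 motif TGANTCA. The Col5a1 window (chr2:27886175-27886474, plus strand, 75.0% GC, 34 CpG) and the Zmynd11 window (chr13:9763761-9764060, minus strand, 70.0% GC, 31 CpG) each hold 2 matches of the GC box GGGCGG in capitals. The Runx2 window (chr17:44814578-44814877, minus strand, 45.3% GC, 2 CpG) holds 3 matches of the RUNX motif TGTGGT in capitals. Both strands were searched for 9 motifs, and no capital run overlaps a match of another of them.
Clec2h: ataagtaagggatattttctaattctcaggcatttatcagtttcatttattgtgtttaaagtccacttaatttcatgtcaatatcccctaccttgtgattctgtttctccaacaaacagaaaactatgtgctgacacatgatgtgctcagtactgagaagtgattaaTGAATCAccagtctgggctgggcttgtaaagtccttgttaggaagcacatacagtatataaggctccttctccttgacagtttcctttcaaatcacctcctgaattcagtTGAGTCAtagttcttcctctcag
Col5a1: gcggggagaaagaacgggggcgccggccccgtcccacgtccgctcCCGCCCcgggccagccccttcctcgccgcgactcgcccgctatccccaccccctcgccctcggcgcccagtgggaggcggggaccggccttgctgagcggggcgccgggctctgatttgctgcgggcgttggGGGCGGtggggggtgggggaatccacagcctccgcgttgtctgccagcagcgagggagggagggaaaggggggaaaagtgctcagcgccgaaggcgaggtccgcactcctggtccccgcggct
Zmynd11: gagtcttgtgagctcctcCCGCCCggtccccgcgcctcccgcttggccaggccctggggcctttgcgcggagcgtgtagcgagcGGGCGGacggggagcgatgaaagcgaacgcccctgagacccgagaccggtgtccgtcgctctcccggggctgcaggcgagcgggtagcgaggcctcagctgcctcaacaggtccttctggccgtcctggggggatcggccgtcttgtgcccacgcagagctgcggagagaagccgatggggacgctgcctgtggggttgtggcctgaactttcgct
Runx2: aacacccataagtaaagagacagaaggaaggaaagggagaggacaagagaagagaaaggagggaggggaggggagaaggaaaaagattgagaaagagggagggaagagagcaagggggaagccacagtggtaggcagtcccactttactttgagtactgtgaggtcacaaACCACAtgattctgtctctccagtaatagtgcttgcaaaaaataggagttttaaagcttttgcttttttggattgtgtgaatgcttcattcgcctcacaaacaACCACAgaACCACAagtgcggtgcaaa

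Among the 80 windows, 7 (8.75%) held the AP-1 motif, against 6.99% of all 21263 coding-gene windows of the table and 5.10% of those in any consensus region. The GC box stood in 52 windows (65%), against 46.2% of all windows and 71.1% of those in a consensus region. The RUNX motif stood in 13 windows (16.3%), against 15% of all windows and 11.4% of those in a consensus region. Median GC content was 59.3% in the 80 windows, 56.3% in all windows and 62.3% in those in a consensus region. A match is a run of letters and not a bound site.

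Counts over all regions totalled 10521964 to 24052237 per library, and the deepest libraries were those of PB3-VIN-R. The spread between replicates exceeded what counting alone gives (chi-square per degree of freedom 4.80 in PB3-ERI-R, the lowest of the 4 lines, and 10.3 in PB3-VIN-R, the highest). Values are given as CPM, the read count of a region relative to its library's total after TMM normalization, which scales libraries so that most regions are level. As a check of the labelled cell type, regions within 1 kb of the ends of Krt8, an epithelial keratin gene, held 57.8 to 116 CPM in every library. At the gene end of Vim, the mesenchymal filament vimentin, PB3-Parental held 130 and 107 CPM and PB3-ERI-R held 3.07 and 4.32 CPM. At Cdh1, which encodes E-cadherin, PB3-ERI-R held 58.8 and 53.6 CPM and the other lines 2.16 to 4.66 CPM. PB3-ERI-R thus stood apart from the other lines at Vim and Cdh1, while it overlapped them at Krt8 and at Fn1, the fibronectin gene (85.5 and 82.7 CPM, against 69.8 to 101 CPM in the other lines). Of the receptors in the labels, Pgr had no region, while regions at the gene ends of Esr1 and Erbb2 were open in every library (10.4 to 13.6 and 51.6 to 76.1 CPM), which is accessibility and not protein. Ptprc, Cd3e, Pecam1, Cdh5 and Kdr, which define leukocytes and endothelium, had no region at a gene end.

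The 3070 regions were open in the parental line, at a level just under that of the resistant pair. The median region held 6.02 and 5.26 CPM in the PB3-Parental libraries, 7.04 and 6.98 CPM in PB3-PAC-R, and 7.25 and 6.78 CPM in PB3-VIN-R. In PB3-ERI-R the median was 1.95 and 2.21 CPM. The regions held 2.43% and 2.13% of all counts in PB3-Parental, 0.959% and 1.03% in PB3-ERI-R, 2.78% and 2.73% in PB3-PAC-R, and 2.93% and 2.61% in PB3-VIN-R. The parental libraries lay below all 4 libraries of the resistant pair in both measures, by a small margin, and the PB3-ERI-R libraries lay far below the rest.

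**Figure D1:**
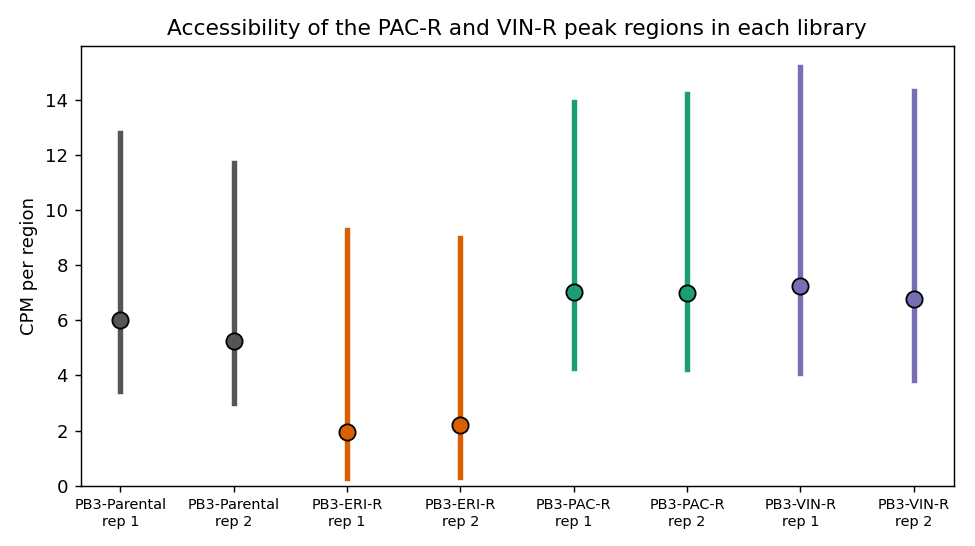
Accessibility of the 3070 regions in each of the 8 libraries (CPM per region, linear axis); points are medians and bars run from the 10th to the 90th percentile of the regions, not over replicates. The parental medians of 6.02 and 5.26 CPM sit just under the 6.78 to 7.25 CPM of PB3-PAC-R and PB3-VIN-R, and the PB3-ERI-R medians near 2 CPM.

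Set against the mean of the 4 PB3-PAC-R and PB3-VIN-R libraries, the parental mean of a region was 85.9% at the median, with 59.2% at the 10th percentile and 107% at the 90th. The parental level was under 25% of that mean in 9 regions and between 25% and 50% in 136. With parental replicate 1 left out and the libraries scaled anew, 415 regions were under 50%. With all libraries, a further 998 regions lay between 50% and 80%, 1335 between 80% and 100%, and 592 at or above 100%. No region was at or under 3 counts summed over the parental libraries. The lowest sum was 17 counts and the median 183. Most of these regions were thus below a peak threshold in the parental line without being closed there: per kilobase of region, 1925 of them (62.7%) reached the 5th percentile of regions with a parental peak, 15.2 CPM per kb. For comparison, regions with a peak in PB3-ERI-R alone had a parental median of 5.49% of the PB3-ERI-R level, and 98.0% of those 9700 regions were under 50%. The 5262 regions with a peak in PB3-VIN-R alone had a parental median of 85.8%.

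**Figure D2:**
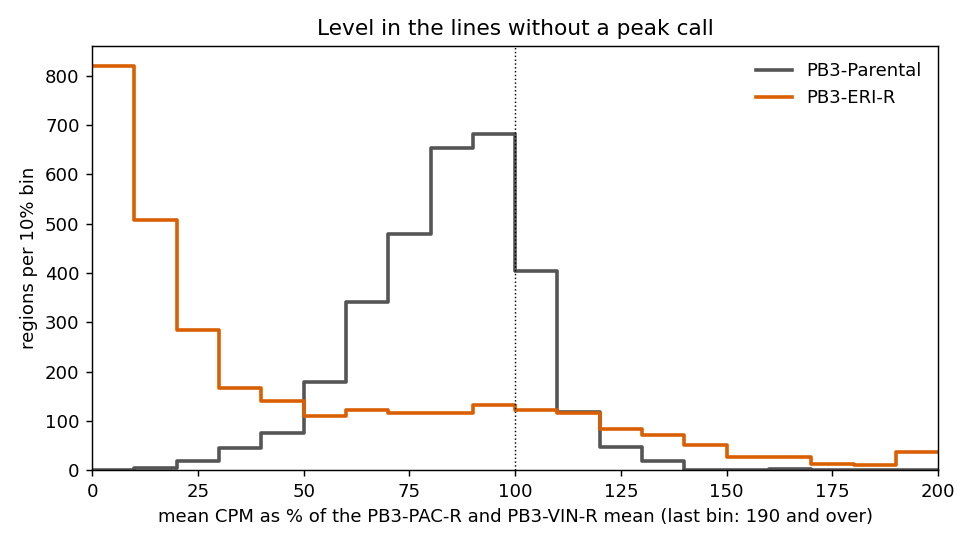
Mean CPM of each line without a peak as a percentage of the mean of the PB3-PAC-R and PB3-VIN-R libraries, counted in bins of 10% over the 3070 regions (regions at or above 190% are in the last bin). The parental curve is highest between 90% and 100% (682 regions), while the PB3-ERI-R curve is highest under 10%.

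The replicates of the parental line differed from each other at these regions more than those of PB3-PAC-R and of PB3-VIN-R. Parental replicate 1 was above replicate 2 in 63.8% of the regions, and the libraries were at least 2-fold apart, with 0.1 CPM added to each, in 329 regions (10.7%). In 241 of these replicate 1 was the higher library. For PB3-PAC-R the same gap occurred in 14 regions (0.456%), and for PB3-VIN-R in 21 (0.684%). Over all 57417 regions the parental libraries were 2-fold apart in 4.27%, and in regions with a peak in every line but PB3-ERI-R in 0.789%. The gap was not particular to this set. In the 5262 regions with a peak in PB3-VIN-R alone the parental libraries were 2-fold apart in 9.29%, and replicate 1 was the higher in 63.6%. In the 746 regions with a peak in PB3-Parental alone the order was turned: 6 of them (0.804%) were 2-fold apart in PB3-Parental and 77 (10.3%) in PB3-VIN-R. The higher parental library reached the PB3-PAC-R and PB3-VIN-R mean in 1453 regions (47.3%), and both parental libraries did so in 84 (2.74%). Parental replicate 1 was under 50% of that mean in 123 regions, replicate 2 in 410, and both in 74. The labels give 1 list per line with an IDR step, a filter that keeps peaks ranking alike in replicates, and the part of that step in these counts was not tested.

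In 806 regions (26.3%) all 4 PB3-PAC-R and PB3-VIN-R libraries were above both parental libraries, against 7.32% of all regions, an order on which the rule itself bears. In the edgeR fit over all regions with Benjamini-Hochberg adjustment, 9 regions were called higher in PB3-PAC-R than in PB3-Parental, where the background is 0.0314% of all regions. In PB3-VIN-R 58 were called higher, where the background is 0.388%. None of the 3070 was called lower in either comparison. The comparisons share the parental libraries. 8 regions were in both sets and 59 in either, and nothing is read from these counts, since the peak lists had already selected for them. The median log2 fold change over the 3070 regions was 0.23 for PB3-PAC-R, 0.19 for PB3-VIN-R, against -0.01 and -0.01 over all regions. Both counts depended on single libraries. Without parental replicate 1 they were 52 and 198, without parental replicate 2 they were 1 and 6, and without either PB3-ERI-R library they were 0 and 21. Without PB3-PAC-R replicate 1 and replicate 2 the PB3-PAC-R count was 6 and 1, and without either PB3-VIN-R library it was 4. The PB3-VIN-R count was 10 without PB3-VIN-R replicate 1, 1 without its replicate 2, and 70 and 83 without PB3-PAC-R replicate 1 and replicate 2. All 9 and all 58 calls kept their sign in every such fit, but 0 of the 9 and 1 of the 58 held in every one of them.

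A small group of regions had a parental level far below that of the resistant pair. The region with the largest ratio lay 34.3 kb from Pom121l12, at chr11:14634632-14634941, and held 0.602 and 0.466 CPM in PB3-Parental, 4.14 and 5.48 CPM in PB3-PAC-R, and 3.85 and 5.53 CPM in PB3-VIN-R. Every library of the resistant pair was above both parental libraries, whose mean was 11.2% of theirs. In PB3-ERI-R it held 0.0929 and 0.664 CPM, which overlapped the parental values. A region inside Setbp1, the gene of the SET-binding protein, at chr18:78772156-78772571, held 1.81 and 0.732 CPM in PB3-Parental, 7.28 and 6.98 CPM in PB3-PAC-R, and 6.64 and 8.16 CPM in PB3-VIN-R. The resistant libraries were again all above the parental ones. Setbp1 was the nearest coding gene of 4 of the 59 regions, more than any other gene. The others of that set lay at chr18:79123016-79123258, chr18:79145615-79145951 and chr18:79207154-79207570, with parental levels of 21.3%, 28.1% and 18.5% of the resistant mean.

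Further regions of this group were at single genes. In Plce1, which encodes a phospholipase C that links Ras to calcium signalling, a region at chr19:38672142-38672855 held 3.13 and 3.73 CPM in PB3-Parental, 10.4 and 15.5 CPM in PB3-PAC-R, and 14.9 and 21.9 CPM in PB3-VIN-R. In PB3-ERI-R the same region held 0.279 and 0.111 CPM, the lowest values of the 4 lines. A region of Ext1, which encodes a polymerase of heparan sulfate chains, at chr15:53138703-53139224, held 3.13 and 2.00 CPM in PB3-Parental, 12.7 and 19.2 CPM in PB3-PAC-R, 7.17 and 5.70 CPM in PB3-VIN-R, and 10.9 and 9.30 CPM in PB3-ERI-R. It was above the parental libraries in all 3 resistant lines. With 1 region per gene and a gene within 50 kb, the rest of the 8 with the largest ratio (0.5 CPM added to both means) were in C2cd5, a C2-domain gene of vesicle trafficking (22.6% of the resistant mean), at the end of Clec2h (25.1%), in Ssh1, a cofilin phosphatase gene (25.9%), and in Itsn1, an endocytic scaffold gene (25.3%). At Clec2h (chr6:128662184-128662559), over the promoter window printed above, the parental libraries held 4.45 and 1.46 CPM, PB3-PAC-R 12.3 and 9.04 CPM, and PB3-VIN-R 15 and 10.9 CPM. The parental replicates were far apart there, and both were below the resistant libraries. The peak lists had selected for this difference, so its call is a description. The Clec2h call was in PB3-VIN-R (adjusted p = 0.0293) and not in PB3-PAC-R (0.142), and it was lost with offsets per 10 Mb window (0.0936) and in the least favourable fit without 1 library (0.174).

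**Figure D3:**
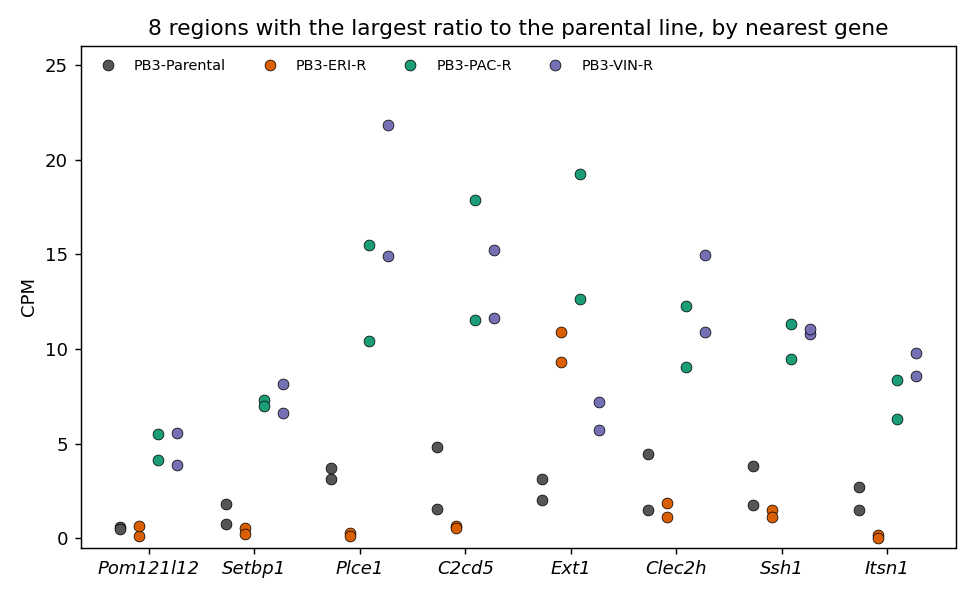
CPM in each of the 8 libraries (1 point per library, linear axis) for the 8 regions, 1 per gene with a gene within 50 kb, that had the largest ratio of the PB3-PAC-R and PB3-VIN-R mean to the parental mean, named by the nearest coding gene. The green and violet points of PB3-PAC-R and PB3-VIN-R stand above the grey parental points in every region, and in Ext1 the orange PB3-ERI-R points do so too.

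Of the 59 regions called in either comparison, 1 lay within 1 kb of a gene end, and the parental level of those called in PB3-VIN-R ran from 11.2% to 51.8% of the resistant mean. One of them, named after its values were seen, lay in Endou, an endoribonuclease gene, at chr15:97728195-97729496. It held 19.4 and 13.1 CPM in PB3-Parental, 41.0 and 52.9 CPM in PB3-PAC-R, and 50.4 and 60.6 CPM in PB3-VIN-R, with no overlap between the parental line and the pair. Klf12, a Kruppel-like repressor gene, Fgf13, a gene of an intracellular fibroblast growth factor homologue, and Sorcs3, a sorting receptor gene, were the nearest gene of 2 of the 59 regions each, as were Elmod1 and Bod1l. Chromosome 6 held 9 of the 59 regions and 242 of the 3070, and chromosome 5 held 7 and 173. Chromosome 15 held 7 and 228, and the X chromosome 6 and 56. Of all regions, chromosomes 6, 5, 15 and X held 5.57%, 6.40%, 4.64% and 2.34%. In the 3 windows of the X chromosome from 30 to 60 Mb, regions shared by the 4 lines were higher in PB3-VIN-R than in PB3-Parental by medians of 0.64 to 0.66 on the log2 scale. With offsets per 10 Mb window 5 of the 6 X calls were lost (adjusted p from 0.127 to 0.467), and the one in Ct55 held (0.0493). On chromosome 6 the PB3-VIN-R calls at C2cd5, Clec2h, Cacna1c, Srgap3, Slco1a5 and Bcl2l14 were lost too (adjusted p from 0.0936 to 0.193). Those at Slc13a1, Dgki and Ccdc91 held (0.0269, 0.0371 and 0.0244). The peak lists had selected for these calls, so they are a description. In PB3-ERI-R, 37 of the 59 were lower than in PB3-Parental and 6 higher, where 62.4% of the 3070 regions and 37.6% of all regions were lower.

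The main fit called no difference between the lines of the resistant pair at the 3070 regions. In edgeR's quasi-likelihood test 0 of 3070 regions were called between PB3-VIN-R and PB3-PAC-R, against 0.00871% of all regions (5 of 57415), and the smallest adjusted p was 0.303. At an unadjusted p under 0.05 there were 80 regions. DESeq2 called 1, and edgeR with a term for the replicate number called 6. The median log2 difference was -0.03, with 5th and 95th percentiles of -0.43 and 0.44, and 4 regions differed by more than 2-fold. The median standard error of 0.279 on the log2 scale limits what such a test can see, so the result does not show that the lines are alike. Both PB3-VIN-R libraries were above both PB3-PAC-R libraries in 471 regions (15.3%), against 14.7% of all regions. Both PB3-PAC-R libraries were above both PB3-VIN-R libraries in 632 (20.6%), against 16.5%. The share with PB3-VIN-R higher was close to the background, and the share with PB3-PAC-R higher was above it, a difference that was not tested.

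The smallest adjusted p between the pair, 0.303, belonged to the Ext1 region described above, which was higher in PB3-PAC-R by 1.31 on the log2 scale (SE 0.284, 95% interval of PB3-VIN-R minus PB3-PAC-R from -1.86 to -0.75). The DESeq2 call was a region inside Agap1, a gene of an Arf GTPase-activating protein of endosomal trafficking, at chr1:89730605-89731296, and it is named for that call after its values were seen. It held 15.1 and 13.1 CPM in PB3-PAC-R, 33.7 and 39.7 CPM in PB3-VIN-R, 21.1 and 8.52 CPM in PB3-Parental, and 1.95 and 2.88 CPM in PB3-ERI-R. The PB3-VIN-R libraries were above all others, and the parental replicates lay on either side of the PB3-PAC-R values. Its log2 difference between the pair was 1.38 (SE 0.319), with an adjusted p of 0.326 in edgeR and 0.0320 in DESeq2. Without parental replicate 1 or replicate 2 edgeR called it as well, with adjusted p of 0.0341 and 0.0297.

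PB3-ERI-R, the other line with no peak at these regions, differed from the parental line at most of them. By edgeR's quasi-likelihood test 1915 of the 3070 regions were lower in PB3-ERI-R than in PB3-Parental, or 62.4%, against 37.6% of all regions. Another 170 were higher, or 5.54%, against 35.4% of all regions. The median log2 fold change was -1.58, against 0.07 over all regions, and it was the same with the 83 regions at or under 3 counts in PB3-ERI-R set to their bound. The absence of a PB3-ERI-R peak was part of the rule. Over all regions, PB3-Parental libraries correlated at 0.948 to 0.979 with those of the resistant pair and at 0.179 to 0.23 with those of PB3-ERI-R. The rule thus bears on both directions, and the numbers of lower and higher regions are a description. Regions with a peak in PB3-VIN-R alone, which lack a PB3-ERI-R peak too, had 3153 lower and 398 higher of 5262. Scaling by library totals alone moved the all-region median to -0.29 and gave 59 higher and 2111 lower among the 3070 regions, and 14862 higher and 25149 lower over all regions, against 20338 and 21582 with TMM. Of the 2085 calls, 1719 held with any 1 library left out. The PB3-ERI-R level was under 25% of the PB3-PAC-R and PB3-VIN-R mean in 1483 regions (48.3%) and at or above 100% in 558 (18.2%). In 476 regions (15.5%) the PB3-ERI-R level per kilobase reached the 5th percentile of its own peaks, although no peak was listed there.

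The 4 regions with 0 counts in both PB3-ERI-R libraries had Pkib, Itsn1, Nav3 and Sox2 as their nearest coding genes. The Nav3 and Sox2 regions lay over 50 kb from these genes and are named after their values were seen. In Pkib, which encodes an inhibitor of protein kinase A, the region at chr10:57670177-57670493 held 3.43 and 3.0 CPM in PB3-Parental, 5.25 and 6.37 CPM in PB3-PAC-R, and 5.84 and 8.28 CPM in PB3-VIN-R. Against a floor of 3 counts over the PB3-ERI-R libraries (0.152 CPM), the parental level was at least 21.2-fold higher (adjusted p = 2.17e-06). The second Itsn1 region, at chr16:91753736-91753907, held 2.29 and 3.06 CPM in PB3-Parental and was at least 17.6-fold higher there than in PB3-ERI-R (adjusted p = 6.86e-06). For the regions beyond 50 kb of Nav3, a neuron navigator gene, and Sox2, a stem-cell transcription factor gene, the same bounds were 33.8-fold and 42.5-fold. Regions in Atxn10, the ataxin-10 gene (8.07 and 4.53 CPM in PB3-Parental), and near the predicted gene Gm7361 (6.5 and 14.2 CPM) held 1 and 2 counts in all in PB3-ERI-R, with adjusted p of 5.30e-07 and 6.85e-07. These regions were thus open in the other lines and closed or nearly so in PB3-ERI-R.

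Of the regions higher in PB3-ERI-R, the 4 with the largest change, 1 per gene with a gene within 50 kb, were at Lmnb1, Itgb8, Krt5 and Ext1. A region 22.8 kb from Lmnb1, the lamin B1 gene, at chr18:56684707-56685043, held 5.24 and 4.93 CPM in PB3-Parental and 23.3 and 28.9 CPM in PB3-ERI-R (log2 fold change 2.36, SE 0.253, adjusted p = 9.61e-07). PB3-PAC-R held 7.53 and 9.66 CPM and PB3-VIN-R 7.82 and 9.53 CPM there, so that PB3-ERI-R was the highest of the 4 lines at a region where it had no peak. In Itgb8, which encodes an integrin subunit that activates latent TGF-beta, the region at chr12:119230588-119230851 held 3.25 and 4.26 CPM in PB3-Parental and 20.4 and 13 CPM in PB3-ERI-R (log2 fold change 2.16, SE 0.291, adjusted p = 9.63e-06). A region 3 kb from Krt5, the basal epithelial keratin gene, at chr15:101715905-101716168, held 2.89 and 1.93 CPM in PB3-Parental, 11.2 and 9.41 CPM in PB3-ERI-R, 5.37 and 4.25 CPM in PB3-PAC-R, and 4.96 and 4.79 CPM in PB3-VIN-R. Its log2 fold change in PB3-ERI-R was 2.09 (SE 0.295, adjusted p = 1.54e-05), and no PB3-ERI-R library overlapped another line. The Ext1 region was the last of this set (log2 fold change 1.97, SE 0.321, adjusted p = 6.17e-05).

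The share lower in PB3-ERI-R was smallest at gene ends and largest far from genes. It was 35.1% of the 279 regions within 1 kb of a gene end, 56.9% of the 794 up to 50 kb from a gene, 65.1% of the 1396 inside genes and 75.9% of the 601 beyond 50 kb of any coding gene. The share higher in PB3-ERI-R was 11.1% at gene ends and between 4.49% and 5.92% elsewhere. All 57417 regions showed the same order, with 11% lower at gene ends, 39.1% up to 50 kb, 45.8% inside genes and 51.3% beyond 50 kb, and with 43.8% higher at gene ends and 31.8% to 35.0% elsewhere.

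**Figure D4:**
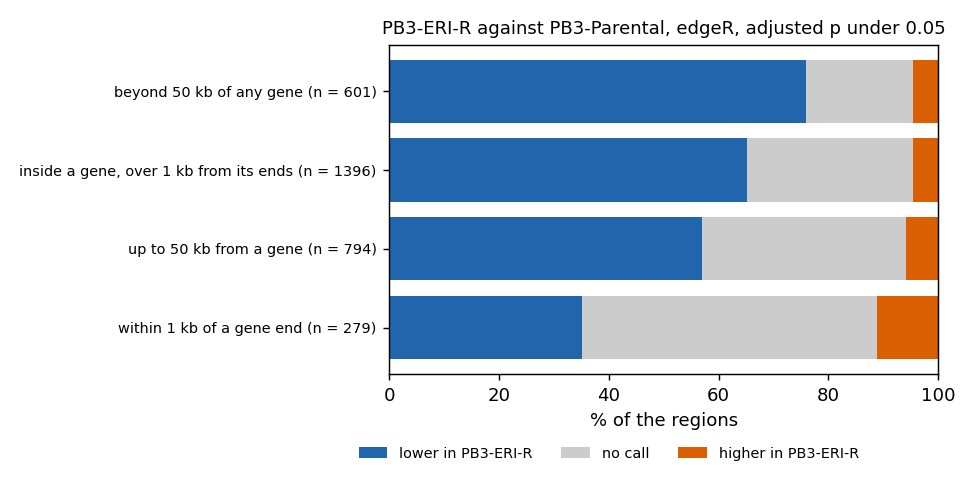
Percentage of the 3070 regions that were lower, not called or higher in PB3-ERI-R than in PB3-Parental (edgeR, adjusted p under 0.05), by place relative to coding genes; the number of regions stands at each bar. Lower calls make up 75.9% of the regions beyond 50 kb of any gene and 35.1% of those at gene ends, against 51.3% and 11% over all regions.

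Of the 8 regions with the highest level per kilobase in the resistant pair, 1 per gene, the parental mean was between 75.4% (Usp5) and 107% of that of the pair. Near Midn, which encodes the nuclear protein midnolin, the region at chr10:80160828-80160999 held 18.2 and 18.8 CPM in PB3-Parental, 20 and 17.2 CPM in PB3-PAC-R, 16.7 and 15.3 CPM in PB3-VIN-R, and 19.2 and 16.5 CPM in PB3-ERI-R. All 4 lines overlapped, and the parental mean was 107% of that of the pair. A region in Axl, a receptor tyrosine kinase gene of mesenchymal and drug-resistant cells, at chr7:25783850-25784074, held 17.9 and 14.0 CPM in PB3-Parental, 18.7 and 17.7 CPM in PB3-PAC-R, and 19.3 and 16.8 CPM in PB3-VIN-R. PB3-ERI-R held 0.279 and 0.554 CPM there, and the difference from PB3-Parental was -5.28 on the log2 scale (SE 0.370, adjusted p = 1.56e-08). The Ccdc88c region, in the gene of the Wnt regulator Daple, fell in PB3-ERI-R as well, from 25.2 and 13.4 CPM to 0.743 and 0.775 CPM (log2 fold change -4.66, SE 0.404, adjusted p = 1.11e-07). Near Nupr1, a stress-induced chromatin protein gene, it was -2.75 (SE 0.299, adjusted p = 1.13e-06), and near AI837181 it was -2.19 (SE 0.262, adjusted p = 2.84e-06). In Unc5b, a netrin receptor gene with the highest counts of this set (54.8 and 44.1 CPM in PB3-Parental), it was -1.01 (adjusted p = 0.00219), a call that was lost with offsets per 10 Mb window (log2 fold change -0.38, adjusted p = 0.197). Usp5, a deubiquitinase gene, and Klhl21, a ubiquitin ligase adaptor gene of mitosis, had adjusted p of 0.705 and 0.0113. At Usp5 both parental libraries (14.6 and 18 CPM) were below all 4 of the pair (18.2 to 26.8 CPM). The Klhl21 value was 0.107 in the least favourable fit without 1 library and 0.853 with the window offsets.

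Within 1 kb of gene ends, the highest regions by CPM, not per kilobase, lay at Zmynd11, Tlk1, Col5a1, Myo1c and Mb21d2. Zmynd11 (chr13:9763478-9765289) held 45.8 and 47.9 CPM in PB3-Parental, 61.0 and 56.6 CPM in PB3-ERI-R, 50 and 44.7 CPM in PB3-PAC-R, and 43.4 and 53.3 CPM in PB3-VIN-R. The parental line and the pair overlapped, PB3-ERI-R was above them, and its difference from PB3-Parental was not called (adjusted p = 0.0598, or 0.00958 with offsets per 10 Mb window). At Col5a1 (chr2:27886172-27887092) PB3-Parental held 35.4 and 29.8 CPM, PB3-PAC-R 35.4 and 33.0 CPM, PB3-VIN-R 30.4 and 33.6 CPM, and PB3-ERI-R 10.9 and 7.97 CPM. Only PB3-ERI-R stood apart among the 4 lines, with a log2 fold change of -1.78 (SE 0.202, adjusted p = 1.68e-06). At Tlk1, a chromatin kinase gene, Myo1c, an unconventional myosin gene, and Mb21d2 the parental means were 96.5%, 94.8% and 107% of the resistant mean, and PB3-ERI-R was not called (adjusted p of 0.406, 0.623 and 0.413). These 3 regions had signal in all 4 lines, although peaks were listed in PB3-PAC-R and PB3-VIN-R alone.

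By gene group, regions were assigned to the nearest coding gene within 50 kb, which says where a region lies and not what it regulates. Mesenchymal and matrix genes had 15 of the 3070 regions in 12 genes (8.43% of the 178 regions of that list, against 5.35% of all regions). The share of housekeeping genes was as high (3 of 35 regions, 8.57%). The parental level of these 15 was 96.0% of the resistant mean at the median. Of them 12 were lower in PB3-ERI-R and none higher, where 62.4% of the set and 37.6% of all regions were lower. In PB3-VIN-R 1 was called higher than in the parental line, a difference for which the peak lists had selected. Besides Axl and Col5a1 the 15 included 2 regions of Cdh2, which encodes N-cadherin. The one at chr18:16808057-16809092 held 22.9 and 20.4 CPM in PB3-Parental, 22.1 and 17.9 CPM in PB3-PAC-R, 21.3 and 23.3 CPM in PB3-VIN-R, and 6.69 and 7.31 CPM in PB3-ERI-R (log2 fold change -1.63, SE 0.221, adjusted p = 1.02e-05). The called one lay in Pdgfra, a platelet-derived growth factor receptor gene, at chr5:75166441-75166882, with 5.84 and 4.59 CPM in PB3-Parental, 11.2 and 9.52 CPM in PB3-PAC-R, 12.5 and 14.9 CPM in PB3-VIN-R, and 0.464 and 0.886 CPM in PB3-ERI-R. The resistant pair was above the parental line in every library, and PB3-ERI-R below it.

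The TGF-beta pathway, whose ligands drive epithelial cells towards a mesenchymal state, had 15 of its 204 regions in the set (7.35%), in 11 genes. Of these 12 were lower in PB3-ERI-R and none higher, where 62.4% of the set and 37.6% of all regions were lower. Smad3, a signal transducer of the pathway (chr9:63726518-63726992), fell from 18.6 and 9.72 CPM in PB3-Parental to 2.60 and 2.21 CPM in PB3-ERI-R (log2 fold change -2.55, SE 0.352, adjusted p = 1.23e-05). Its level in PB3-PAC-R and PB3-VIN-R was 13.6 to 17.8 CPM, between the parental values. Bmpr1b, a bone morphogenetic protein receptor gene, fell from 10.5 and 10.3 CPM to 0.836 and 0.997 CPM (log2 fold change -3.50, SE 0.315, adjusted p = 1.60e-07), and Tgfbr3, the betaglycan gene, by 1.80 on the log2 scale (adjusted p = 0.00413, or 0.106 in the least favourable fit without 1 library). Transcription factors of EMT, the epithelial-mesenchymal transition, had 5 of their 148 regions in the set (3.38%), in Runx1, Runx2 and Sox4. Of these 4 were lower in PB3-ERI-R. The Runx1 region at chr16:92608114-92608544 held 17.5 and 19.8 CPM in PB3-Parental, 19.7 and 19.9 CPM in PB3-PAC-R, 21.2 and 17.6 CPM in PB3-VIN-R, and 2.42 and 2.44 CPM in PB3-ERI-R (log2 fold change -2.94, SE 0.255, adjusted p = 1.11e-07). At the Runx2 promoter printed above, the region at chr17:44814646-44815289 fell from 5.00 and 5.32 CPM in PB3-Parental to 1.21 and 1.22 CPM in PB3-ERI-R (log2 fold change -2.08, SE 0.359, adjusted p = 0.000103). For Sox4, a developmental regulator, it was -0.68 (adjusted p = 0.00509).

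Epithelial adhesion and keratin genes had 4 of their 103 regions in the set (3.88%), in Cdh1, Cldn4, Jup and Krt5. In PB3-ERI-R 2 were higher and none lower, where 5.54% of the set and 35.4% of all regions were higher. The Jup region, in the plakoglobin gene, was higher by 0.87 on the log2 scale (adjusted p = 0.0191), a call lost in the least favourable fit without 1 library (adjusted p = 0.315) and with the window offsets (adjusted p = 0.0548). The Cdh1 region, inside the gene at chr8:106614713-106615036, held 12.6 and 8.59 CPM in PB3-Parental, 11.9 and 12.5 CPM in PB3-PAC-R, 14.1 and 12.9 CPM in PB3-VIN-R, and 7.71 and 7.86 CPM in PB3-ERI-R. PB3-ERI-R was lowest there without a call (adjusted p = 0.128), while at the gene's end it was the highest line, as given above. Epithelial transcription and splicing factors had 1 of their 99 regions in the set (1.01%). It lay in Grhl2, a grainyhead-like factor gene, and was lower in PB3-ERI-R (log2 fold change -2.20, SE 0.364, adjusted p = 7.13e-05).

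Genes closer to the action of the drugs were also looked at by list. The background for counts lower in PB3-ERI-R is 62.4% of the set and 37.6% of all regions. Drug efflux and detoxification genes had 5 of their 80 regions in the set (6.25%, against 5.35% of all regions), 1 each in Abca3, Abcc5, Abcg2, Aldh1a3 and Slco1a5, and Abcb1a and Abcb1b, the P-glycoprotein genes of taxane export, had none. In Slco1a5, an organic anion transporter gene, the region at chr6:142275748-142276509 held 7.22 and 6.59 CPM in PB3-Parental, 15.1 and 15.5 CPM in PB3-PAC-R, 14.4 and 17.3 CPM in PB3-VIN-R, and 13.8 and 15.5 CPM in PB3-ERI-R. All 6 libraries of resistant lines were above the parental ones, and PB3-ERI-R differed from PB3-Parental by 1.08 on the log2 scale (SE 0.228, adjusted p = 0.000608), or by 1.99 with the window offsets. The call in PB3-VIN-R (log2 fold change 1.20, adjusted p = 0.0271) was lost with those offsets (0.72, adjusted p = 0.193). PB3-PAC-R was not called with or without them (adjusted p of 0.375 and 0.0892). The peak lists had selected for the difference of the pair from PB3-Parental, so these values are a description. In Aldh1a3, a retinal dehydrogenase gene, PB3-ERI-R was lower by a log2 fold change of -3.21 (SE 0.373, adjusted p = 2.18e-06). Tubulins and microtubule proteins had 7 of 148 regions (4.73%), of which 5 were lower in PB3-ERI-R, among them those near Tubb6 (log2 fold change -2.18, adjusted p = 0.000144) and in Map2 (-2.11, adjusted p = 0.000192). Near Tubb2b the parental libraries held 10.2 and 4.79 CPM, PB3-PAC-R 8.64 and 11.5 CPM and PB3-VIN-R 14.2 and 16.1 CPM, and PB3-ERI-R was not called (adjusted p = 0.531). The mitotic cell cycle list had 1 of 54 regions (1.85%), in the spindle checkpoint gene Mad1l1, and the AP-1 family had none of 76. Apoptosis regulators had 8 of 112 regions (7.14%), with 4 lower and 1 higher in PB3-ERI-R. The lower ones included Cflar, the gene of a caspase-8 inhibitor (log2 fold change -2.36, SE 0.320, adjusted p = 1.03e-05).

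Receptor tyrosine kinases and ligands had 14 of 210 regions (6.67%), of which 6 were lower in PB3-ERI-R. For this list and those that follow, the background is again 62.4% lower in the set and 37.6% over all regions. Near Ereg, the epiregulin gene, the 4 lines held 8.64 to 13.9 CPM and PB3-ERI-R was not called (adjusted p = 0.266). Neural genes had 17 of 174 regions (9.77%), in 9 genes, with 16 lower in PB3-ERI-R and none higher, and a parental median of 76.2% of the resistant mean. In Dlg2, a synaptic scaffold gene, the log2 fold change in PB3-ERI-R was -2.78 (SE 0.313, adjusted p = 1.59e-06), in Cntnap2, a neurexin family gene, -3.88 (SE 0.554, adjusted p = 1.70e-05), and in Snap25, a synaptic vesicle fusion gene, -3.72 (SE 0.409, adjusted p = 1.23e-06). Leukocyte and endothelial marker genes had 7 of their 24 regions in the set (29.2%), in Csf1r, Eng, Itgam, Mrc1, Pecam1 and Tek, and 5 of them were lower in PB3-ERI-R. The parental level of these 7 was 88.7% of the resistant mean at the median, and the part of other cell types in it was not tested beyond the absence of gene-end regions at the defining genes named above. The interferon list had 1 of 28 regions (3.57%), in Oasl1 (log2 fold change in PB3-ERI-R -2.43, adjusted p = 3.99e-05). SWI/SNF had 1 of 79 (1.27%), in Arid1a (-1.36, adjusted p = 0.00103). Housekeeping genes had 3 of 35 (8.57%), near Actb, Ppia and Ywhaz. No region of these groups was called between PB3-VIN-R and PB3-PAC-R.

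Regions of the set were spread over 2077 nearest genes, of which 309 had 2 or more. Kalrn, which encodes kalirin, a signalling protein of the cytoskeleton, had 8 of its 30 regions in the set, and Trappc9, a vesicle tethering gene, 5 of 14. Akap13, Bcar3 and Ccdc54 had 4 each, of 22, 18 and 8. They are the first by alphabet of a larger group with 4, which also holds Ctnna2, Erc1, Fgf13, Lrmda, Pcdh7, Ralgps1 and Samd4. The highest Kalrn region, at chr16:34528344-34528935, held 22.5 and 7.05 CPM in PB3-Parental, 23.6 and 18.2 CPM in PB3-PAC-R, 33.7 and 16.7 CPM in PB3-VIN-R, and 0.372 and 0.443 CPM in PB3-ERI-R. Parental replicate 1 lay within the range of the pair, and replicate 2 below it. The log2 fold change in PB3-ERI-R was -5.17 (SE 0.690, adjusted p = 8.78e-06). For Trappc9 it was -2.85 (SE 0.411, adjusted p = 1.87e-05) and near Bcar3, an adaptor gene named for antiestrogen resistance, -3.38 (SE 0.369, adjusted p = 1.17e-06). In Akap13, a kinase anchoring gene, and near Ccdc54 it was not called (adjusted p of 0.203 and 0.129). Neighbouring regions of the set formed 182 pairs, 17 runs of 3 and 2 runs of 4, while 2647 stood alone among other consensus regions. A run of 4 spanned 48.7 kb in Kalrn, with summed levels of 36.7 and 15.5 CPM in PB3-Parental, 41.3 and 33.5 CPM in PB3-PAC-R, and 49.9 and 46.4 CPM in PB3-VIN-R. The other spanned 109 kb near Mc2r, a melanocortin receptor gene.

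Most of the set lay away from gene ends, as did the other regions that PB3-ERI-R lacked. Within 1 kb of a gene end were 279 regions (9.09%), against 21.6% of all regions, 8.40% of those with a peak in PB3-VIN-R alone and 8.64% of those with a peak in every line but PB3-ERI-R. Inside genes lay 45.5%, up to 50 kb from a gene 25.9% and beyond that 19.6%. The median width was 337 bp, against 473 bp over all regions and 678 bp for regions with a peak in all 4 lines. Chromosome 15 had the highest share of its regions in the set (228 of 2662, 8.57%) and chromosome 6 the next (242 of 3199, 7.57%), while chromosome 8 had the lowest of those with any (3.93%). On the same chromosomes, regions with a peak in all 4 lines were higher in PB3-PAC-R than in PB3-Parental, by a median log2 fold change of 0.22 on chromosome 15 and 0.18 on chromosome 6. In PB3-VIN-R these medians were 0.11 and 0.02. On chromosome 6 the PB3-VIN-R median was 0.30 to 0.33 in the 4 windows from 110 to 150 Mb. On the other chromosomes the PB3-PAC-R median lay between -0.09 and 0.01. The part of a whole-chromosome shift in the members on chromosomes 15 and 6 was not tested on its own. With the median shift of each 10 Mb window taken out, 5 regions of the set were called higher for PB3-PAC-R, 35 for PB3-VIN-R.

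**Figure D5:**
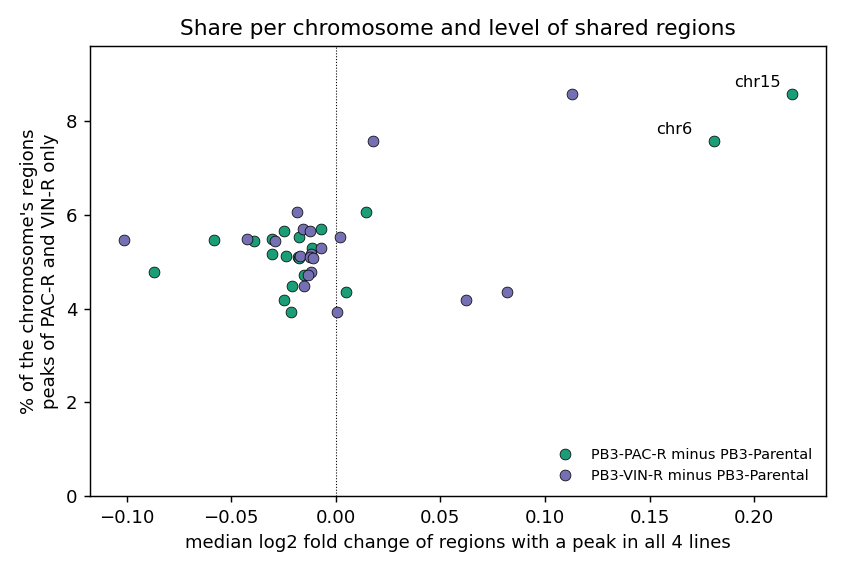
Each chromosome's share of consensus regions that had a peak in PB3-PAC-R and PB3-VIN-R only (vertical axis, %), against the median log2 fold change of its regions with a peak in all 4 lines (horizontal axis), with 1 point per chromosome and comparison. Chromosomes 15 and 6, at 8.57% and 7.57%, are also farthest to the right for PB3-PAC-R, at 0.22 and 0.18.

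Shared regions close by lay near the parental level in the resistant pair. For 1949 of the 3070 regions a region with a peak in all 4 lines had its centre within 50 kb, at a median distance of 13555 bp. Over these 1785 neighbours the median log2 fold change was 0.01 for PB3-PAC-R over PB3-Parental, 0.00 for PB3-VIN-R, -0.01 between the pair, and 0.32 for PB3-ERI-R. Over all regions shared by the 4 lines the PB3-PAC-R median was -0.01 and the PB3-ERI-R median 0.37. Of the neighbours, 1 was called against PB3-Parental for PB3-VIN-R and 0 for PB3-PAC-R. In PB3-ERI-R these neighbours leaned to higher values, while the set itself was mostly lower.

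The peaks of the set were weaker than the usual peak of their lines. By the scores and folds that the authors' lists give to each peak, a score of 1000, the highest, was held by 853 of the 3070 regions in PB3-PAC-R (27.8%), against 78.8% of all regions with a peak in that line. In PB3-VIN-R it was held by 1384 (45.1%), against 74.6%. The median fold over local background was 18.5 for PB3-PAC-R peaks, 19.6 for PB3-VIN-R peaks, against 20.2 and 20.6 over all peaks of each line. At the edge of the rule, the member with the highest parental level per kilobase was the Midn region (108 CPM per kb in PB3-Parental), followed by Unc5b (87.8 CPM per kb). Just outside, the regions with a parental peak and the lowest parental level, among those with a peak in all lines but PB3-ERI-R, lay near Parp11 (8.22 CPM per kb), Zfp608 (8.79) and Nav2 (8.88). Regions without a parental peak thus ran well above some regions that had one.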

How the data were processed

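ATAC-seq had been run on 2 libraries of each of 4 lines. Per the submitters' processing notes, the build was mm10 (GRCm38) and the tools included MACS2 2.1.1, featureCounts, deepTools, cutadapt 1.9.1, Bowtie2 2.2.6 and Picard, with bcl2fastq 2.20.0.422. For their settings, "not given in the sources used here" applies. The authors deposited a table of raw read counts per consensus region and library, and 1 peak list per line. The deposited peak lists give each peak a score, a fold over local background as a ratio, and a −log10 of its q-value. Peak and region start and end positions are those of the deposited files. A region was taken as having a peak in a line at an overlap of at least 1 bp (bedtools 2.31.1).

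Counts were fitted with edgeR 4.0.16 (R 4.3.3): filterByExpr kept 57415 of 57417 regions, libraries were scaled by TMM, and all 8 libraries entered 1 quasi-likelihood fit with a term per line (4 residual degrees of freedom, common biological coefficient of variation 0.161). P-values were adjusted by Benjamini-Hochberg over all 57415 regions, with a threshold of 0.05. CPM used TMM-scaled library sizes, intervals are 1.96 standard errors, and a floor of 3 counts was used. These cover counting error and spread between libraries only. Library totals were 10521964 to 24052237 counts over regions, so the shallow PB3-ERI-R libraries give the least precise low values. Genes are coding genes of RefSeq GRCm38.p6. No strand was used in placing regions, so gene starts are not told from gene ends, except in the promoter table. The procedure was tested on simulated data.

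The members and gene lists were chosen with earlier results of these data known. Regions named after their values were seen fall outside the rule that follows. Ties in the number of members per gene were broken by alphabet. Named regions have a coding gene within 50 kb, 1 per gene: the 8 with the highest CPM per kb in the resistant pair, the 8 with the largest ratio to the parental mean, up to 4 in each direction between PB3-ERI-R and PB3-Parental, the 5 genes with most members, the 5 highest near gene ends, and up to 3 per gene list by CPM. Alternatives were DESeq2 1.42.0, its size factors in edgeR, library totals alone, no filter, offsets per 10 Mb window, a replicate block, other overlap and score rules, and leaving out each library.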

Additional observations from a re-analysis of the deposited data

How the results depend on the processing

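With 2 libraries per line the fit has few degrees of freedom, and counts of calls against the parental line rest on single libraries, while the 2085 calls between PB3-ERI-R and PB3-Parental among the 3070 regions ranged from 1875 to 2062 with 1 library left out. Requiring a score of 1000 in both lists left 600 regions. Between PB3-VIN-R and PB3-PAC-R, the 5 calls over all regions became 3 with DESeq2's size factors, 3 with library totals alone, 2 with window offsets and 60 with DESeq2, and DESeq2 called 1 of the 3070 regions. Against PB3-Parental, the 49 calls in PB3-PAC-R became 32 with library totals alone, 30 with window offsets and 154 with DESeq2, and the 9 among the 3070 regions became 5 with window offsets and 28 with DESeq2. The 389 calls in PB3-VIN-R became 234 with window offsets and 628 with DESeq2, and the 58 among the 3070 regions became 35 with window offsets. With 1 library left out, calls over all regions ranged from 0 to 33 between the pair (0 to 1 among the 3070), from 3 to 172 in PB3-PAC-R (0 to 52), from 14 to 991 in PB3-VIN-R (1 to 198) and from 37899 to 42164 in PB3-ERI-R. Regions with a parental mean under 50% of the resistant mean ranged from 123 to 415, and those with a PB3-ERI-R mean under 50% from 1905 to 1947. The cause of these changes was not tested. The replicate numbers share only a number: same-numbered libraries of different lines correlated in their deviations at 0.0729 to 0.446, over 2 pairs. With a replicate block the calls over all regions were 226 between the pair, 636 for PB3-PAC-R, 2717 for PB3-VIN-R, and among the 3070 they were 6, 114 and 342. No called value of a named region changed sign under any of these alternatives.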

Other observations

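Regions with a peak in PB3-Parental alone, 746 in number, were also open in the resistant lines. The median PB3-PAC-R level was 75.9% of the parental mean and the median PB3-VIN-R level 67.8%, while PB3-ERI-R held 26.1%. PB3-PAC-R was under 50% of the parental mean in 89 of these regions and PB3-VIN-R in 135. Regions with a peak in PB3-ERI-R and PB3-VIN-R but in neither other line were fewer (740), with a parental median of 50% and a PB3-PAC-R median of 49.6% of the mean of the lines with a peak. These are descriptions, since the peak lists chose the regions.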
